A study of Mus musculus with 8 samples.

Results

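Stimulation of cells labelled iNOS-/- with lipopolysaccharide (LPS) plus interferon-γ (IFN-γ) was examined on all probes of an expression array. The comparison asks how macrophages whose inducible nitric oxide synthase gene is disrupted respond to M1 activation. Its members were chosen by label alone. They are the 4 arrays labelled iNOS deficient, of 8 arrays in all, 2 unstimulated and 2 activated. The other 4 arrays carried RNA from wild-type (WT) cells given the same treatments. All labels give female C57bl/6J mice aged 8 weeks. The methods name the B6.129P2-Nos2tm1Lau/J line as the source of the iNOS-deficient cells. Bone marrow cells of both genotypes were grown in GM-CSF at 10 ng/ml for 7 days, so GM-CSF was common to every group. The unstimulated cells received nothing more, and the M1 cells received LPS at 200 ng/ml with IFN-γ at 10 ng/ml for 6 h. GM-CSF cultures of bone marrow hold macrophages and cells with dendritic cell features. The labels do not tell whether replicate arrays are from separate mice, so that p-values measure only the spread between these arrays, which may be technical.

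LPS is a cell wall component of Gram-negative bacteria that engages Toll-like receptor 4 (TLR4). The adaptors of this receptor activate NF-κB, AP-1 and interferon regulatory factors, and the interferon-β that follows acts back on the cell. IFN-γ signals through its own receptor and Janus kinases, and both interferons induce antiviral genes, guanylate-binding GTPases and antigen presentation genes. In M1 macrophages iNOS makes nitric oxide from arginine.

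Levels below are log2 intensities after scaling between arrays, in which intensities under 1 unit stand at 0. Each gene is given by its brightest probe, except in rankings of the largest changes or differences, where its highest-ranking probe stands. A probe is detected where its detection p-value was under 0.05 on an array. A change is the log2 level of M1 minus unstimulated cells ± SE from a limma fit of all 8 arrays, with n = 2 arrays per group. A gene was called higher or lower at an adjusted p under 0.05 from that fit. Where both arrays of one group were undetected, the change is given as an at least fold against the lowest level that the arrays of that group could detect.

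The arrays of 1 group differed from each other by a median of 0.16 to 0.19 on the log2 scale. The iNOS-/- unstimulated arrays lay 0.72 to 0.74 from the iNOS-/- M1 arrays. They lay 0.48 to 0.49 from the WT unstimulated arrays and only 0.34 to 0.36 from the WT M1 arrays, so that the unstimulated iNOS-/- cells stood nearer to activated than to unstimulated WT cells. The iNOS-/- M1 arrays lay 0.67 to 0.69 from the WT M1 arrays and 0.81 to 0.82 from the WT unstimulated ones. No value checked the genotype labels, and an exchange of them among the unstimulated or among the M1 arrays cannot be told apart from a difference between genotypes. Every response and every difference between genotypes given here is that of the arrays as labelled. Between 46.0% and 49.3% of the 25697 probes were detected per array. The number of arrays limits the precision of all values.

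*Nos2*, the gene for iNOS, was undetected on both iNOS-/- unstimulated arrays, at 0.97 and 1.87, and detected on both iNOS-/- M1 arrays, at 7.49 and 7.67. It was at least 38.4-fold higher after stimulation (adjusted p = 0.000108). The WT arrays stood at 0.08 and 0 without and at 7.47 and 7.05 with stimulation, and the change did not pass the test of a difference between genotypes (-1.06, adjusted p = 0.117). The label was therefore not checked by this probe, and whether it lies in the disrupted part of the gene was not tested. Macrophage markers were present, with 10 of 11 detected on all 4 iNOS-/- arrays. *Emr1*, which encodes the F4/80 antigen, stood at 11.30 and 11.57 unstimulated and 11.60 and 11.67 in M1 cells, and *Lyz2*, lysozyme, at 13.82 and 13.90 and 14.31 and 14.39. Of the dendritic cell markers, 7 of 12 were detected on all 4 arrays, among them *Il4i1* and *Ccr7*, while *Flt3* and *Xcr1* did not pass the filter. No fibroblast marker of 6 passed it, and of 10 T and NK cell markers only *Lck* and *Thy1* did. The signal summed over the dendritic cell markers went from 4956 and 5186 to 17866 and 18939 units. That over the granulocyte markers went from 1881 and 1819 to 4474 and 4596 units, and that over the macrophage markers from 27125 and 27971 to 41438 and 42048 units. Of the 11 macrophage markers 4 were called higher and 4 lower (36.4% each, beside 25.2% and 26.8% of all genes). Their median change was 0.20. In these bulk RNA samples a change in the number of cells of a type and a change in RNA per cell cannot be told apart, and the part of these markers in the results below was not tested.

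Stimulation changed a large share of the expressed genome of iNOS-/- cells. Of 13868 probes tested, 6975 (50.3%) were called, 3496 higher (25.2%) and 3479 lower (25.1%). At least a 2-fold change was seen in 3995 of these, 2002 higher and 1993 lower, each 14.4% of the probes tested. An 8-fold change or more was seen for 422 higher and 287 lower probes. Genes went from undetected to detected on both arrays for 271 probes and in the opposite direction for 455. The 2 M1 arrays stood on one side of both unstimulated arrays for 77.2% of all probes and for 100% of the called ones. Counted by gene, 2558 of 10163 were higher (25.2%) and 2719 lower (26.8%), with a median change of -0.01 over all genes. The split of calls depended on the scaling. The share of calls that were higher was 50.1% here, 41.9% after quantile normalization, 43.3% after neqc and 58.2% when the scaling line had an intercept, with the median of all probes moved by -0.13, -0.06 and 0.20. Without unstimulated replicate 1 of the iNOS-/- cells the count was 5504.

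**Figure D1:**
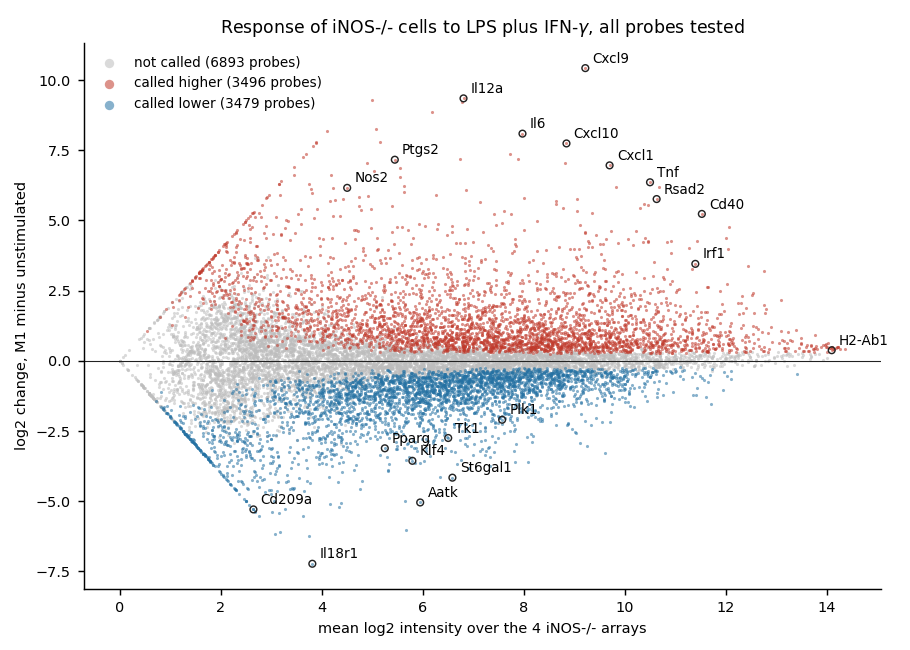
Log2 change (M1 minus unstimulated, y axis) of each of the 13868 probes tested against its mean log2 intensity over the 4 iNOS-/- arrays (x axis), with called probes in colour. The 3496 higher and 3479 lower probes spread to similar numbers on both sides, and the largest rises, led by *Cxcl9*, exceed the largest falls.

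Cytokine and chemokine genes made up 7 of the 12 probes with the largest rises among those detected on all 4 arrays. The 12 held the chemokines *Cxcl9*, *Cxcl10* and *Cxcl1*, the cytokines *Il6*, *Tnf*, *Il1a* and *Tnfsf15*, the costimulatory receptor *Cd40*, the antiviral gene *Oasl1* and the MAP kinase phosphatase *Dusp2*. The others were *Schip1* (6.24) and *A630077B13Rik* (7.38). *Cxcl9*, a ligand of CXCR3 on activated T cells, went from 3.89 and 4.12 to 14.39 and 14.48, a change of 10.43 ± 0.55 (adjusted p = 0.000116). *Il6*, an acute inflammatory cytokine, went from 4.09 and 3.77 to 11.96 and 12.08, a change of 8.09 ± 0.19 (adjusted p = 1.75e-05). Both M1 arrays of each gene lay far above both unstimulated arrays.

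The 12 largest falls among probes detected on all 4 arrays were smaller. The kinase gene *Aatk* went from 8.45 and 8.50 to 3.12 and 3.74 (-5.05 ± 0.21, adjusted p = 5.71e-05). The others included the sialyltransferase *St6gal1* (-4.16), the adenosine receptor *Adora3* (-3.91), the exchange factor *Arhgef18* (-3.90), *Tmem154*, *Tbc1d2*, *Nfe2*, *Mfng*, *Gapt*, *Fblim1* and *Arl11* (-3.81 to -3.61). The WT response of *Aatk* was -0.70 and that of the transcription factor *Nfe2* -0.02, against -3.66 in iNOS-/- cells. *Il18r1*, the receptor chain for interleukin-18, was detected at 7.37 and 7.49 on the unstimulated arrays and undetected at 0.40 and 0 on the M1 arrays, at least 23.1-fold lower. In WT cells it moved from 0 on both to 5.26 and 5.70. The other 7 largest falls below detection were *BC031353*, *Galnt9*, *Rasl12*, *Efcab4a*, *Cdca7*, *Gadd45g* and *Sh2d1b1*, from at least 16.6-fold to at least 12.5-fold. The genes that rose furthest from below detection were the interferon-inducible *Ifi205* (at least 160-fold), the prostaglandin enzyme *Ptgs2*, the glutamate transporter *Slc1a2* (at least 68.7-fold), the DNase *Dnase1l3* (at least 58.7-fold), *Il23a* and *Wdr20b* (at least 44-fold), with further probes of *Oasl1* and *Dusp2*. *Gadd45g*, *Ifi205* and *Slc1a2* are given here by a probe other than the brightest of their gene.

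To show the sequence context of the main groups, the 250 bases before the transcription start were read from RefSeq promoters (GRCm38.p6) for 8 of the genes described below. Each is written 5′ to 3′ on the strand of its gene. In the first 4, capitals mark the core of the interferon-stimulated response element, 2 copies of GAAA with any 2 bases between, on either strand. They belong to 2 antiviral genes, a GTPase and a chemokine.
Ifit3 (chr19:34583279-34583528, plus strand): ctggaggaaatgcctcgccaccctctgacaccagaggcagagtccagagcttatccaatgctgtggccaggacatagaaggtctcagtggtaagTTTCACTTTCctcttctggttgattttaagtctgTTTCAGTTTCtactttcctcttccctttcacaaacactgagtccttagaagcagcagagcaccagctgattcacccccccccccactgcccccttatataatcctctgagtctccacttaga
Rsad2 (chr12:26456453-26456702, minus strand): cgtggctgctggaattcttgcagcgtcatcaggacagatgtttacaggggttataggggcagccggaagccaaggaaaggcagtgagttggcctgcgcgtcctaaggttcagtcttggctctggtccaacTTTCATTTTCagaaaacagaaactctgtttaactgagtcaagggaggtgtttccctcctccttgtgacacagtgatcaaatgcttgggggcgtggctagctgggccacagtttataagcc
Gbp5 (chr3:142496684-142496933, plus strand): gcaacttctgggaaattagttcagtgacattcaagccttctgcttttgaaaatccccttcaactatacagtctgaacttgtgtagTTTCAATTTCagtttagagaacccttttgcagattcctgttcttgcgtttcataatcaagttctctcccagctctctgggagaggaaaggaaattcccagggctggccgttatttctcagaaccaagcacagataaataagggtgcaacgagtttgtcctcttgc
Cxcl10 (chr5:92348890-92349139, minus strand): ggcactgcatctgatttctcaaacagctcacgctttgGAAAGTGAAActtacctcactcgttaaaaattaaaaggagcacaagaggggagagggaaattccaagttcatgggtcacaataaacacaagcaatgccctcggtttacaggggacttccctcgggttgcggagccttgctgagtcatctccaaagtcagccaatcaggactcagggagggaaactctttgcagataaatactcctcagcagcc
In *Cxcl1* and *Il6*, which rose strongly, capitals mark a κB-type site, GGGA then any base then TTTCC, on either strand.
Cxcl1 (chr5:90890995-90891244, plus strand): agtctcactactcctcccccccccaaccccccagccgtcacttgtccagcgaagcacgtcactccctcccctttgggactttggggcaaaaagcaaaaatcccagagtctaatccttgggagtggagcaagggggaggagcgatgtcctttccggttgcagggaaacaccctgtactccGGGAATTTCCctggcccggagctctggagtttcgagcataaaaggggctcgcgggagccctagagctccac
Il6 (chr5:30012864-30013113, plus strand): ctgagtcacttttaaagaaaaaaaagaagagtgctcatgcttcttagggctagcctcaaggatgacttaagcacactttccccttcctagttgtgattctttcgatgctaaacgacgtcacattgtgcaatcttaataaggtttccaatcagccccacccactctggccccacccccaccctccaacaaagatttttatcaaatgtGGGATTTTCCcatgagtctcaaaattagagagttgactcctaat
*Cdc20* and *Mcm5* stand for the dividing-cell genes, which fell. In *Cdc20* capitals mark the CCAAT box and the cell cycle homology region TTTGAA, and in *Mcm5* they mark the E2F-type site TTTNNCGC, which occurs as 2 overlapping matches, all on either strand.
Cdc20 (chr4:118437344-118437593, minus strand): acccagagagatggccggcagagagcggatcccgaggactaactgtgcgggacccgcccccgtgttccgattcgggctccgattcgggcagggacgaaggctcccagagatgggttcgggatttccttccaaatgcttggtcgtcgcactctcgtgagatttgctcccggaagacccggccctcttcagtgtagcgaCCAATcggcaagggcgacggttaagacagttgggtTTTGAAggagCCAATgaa
Mcm5 (chr8:75109259-75109508, plus strand): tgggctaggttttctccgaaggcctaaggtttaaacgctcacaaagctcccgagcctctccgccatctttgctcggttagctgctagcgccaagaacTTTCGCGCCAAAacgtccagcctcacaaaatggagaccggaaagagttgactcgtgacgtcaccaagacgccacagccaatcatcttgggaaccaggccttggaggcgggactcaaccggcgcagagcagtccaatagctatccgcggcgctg

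The response element core was in 2.98% of all 32851 windows of this length. It was in 6 of the 21 windows of the antiviral genes (28.6%), of which 17 of 27 had a window, in 8 of the 10 windows of the GTPases (80%), of which 9 of 11 had one, and in 2 of 7 CXC chemokine windows (28.6%). The interleukin, CC chemokine and NF-κB lists had it in 0 windows. The κB-type site was in 0.356% of all windows, in 3 of 7 CXC chemokine windows (*Cxcl1*, *Cxcl2* and *Cxcl3*) and in 3 of 17 windows of NF-κB subunits and inhibitors. It was in 3 of 20 windows of interleukins and colony-stimulating factors (*Csf1*, *Il6* and *Il16*, of which *Il16* fell). It was also in 1 of 10 GTPase windows and in 1 of 22 windows of mitosis genes, a list that fell. The CCAAT box was in 33.8% of all windows and in 17 of 22 windows of mitosis genes (77.3%) and 18 of 33 of DNA replication genes (54.5%). TTTGAA was in 16% of all windows and in 9 of 22 of mitosis genes (40.9%), but also in 5 of 10 GTPase windows (50%) and 2 of 5 CC chemokine windows (40%), lists that rose. The E2F-type site was in 4.28% of all windows and in 7 of 33 windows of DNA replication genes (21.2%). A match describes letters in the window, and no factor was measured there.

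Cytokine and chemokine genes rose across most of their lists. Of 22 interleukins and colony-stimulating factors, 21 were tested, 19 were called higher and 1 lower, beside 25.2% and 26.8% of all genes. Every list count given here is to be read against these shares. The median change was 4.11, or 2.84 with genes undetected in a group at their bound, against -0.01 over all genes. Part of the list entered the test only through the M1 arrays, since 10 of the 21 were detected on all 4 iNOS-/- arrays. Of the 9 detected on all 8 arrays, 8 were higher and 1 lower.

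The T cell-directing cytokines of the interleukin-12 family started near or below detection. *Il12a*, the p35 chain of interleukin-12, went from 2.72 and 1.55, detected on 1 of 2 arrays, to 11.48 on both (9.35 ± 0.37). *Il12b*, the shared p40 chain, was at least 16.8-fold higher, with M1 levels of 6.64 and 6.15. *Il23a*, the p19 chain of interleukin-23, was at least 46.6-fold higher (7.94 and 7.78). The interleukin-27 chains also rose, *Il27* by 8.87 and *Ebi3* by 2.27. Both M1 arrays of each of these genes lay above both unstimulated arrays.

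*Ifnb1*, interferon-β, was at 0 on both unstimulated arrays and at 7.36 and 7.41 on the M1 arrays, at least 33.4-fold higher. Among interleukin-1 family genes, *Il1b* went from 9.66 and 9.71 to 14.33 and 14.56 and *Il1a* from 7.76 and 7.44 to 13.82 and 13.73, and the receptor antagonist *Il1rn* from 8.13 and 8.11 to 12.28 and 12.17. The growth factors *Csf2* and *Lif* were undetected without stimulation and at least 7.73-fold and 4.2-fold higher with it. *Il10*, which restrains macrophage activation, was at least 3.38-fold higher, at only 4.47 and 3.68 after stimulation. The exceptions were *Csf3*, which was not called (0.56 ± 0.35), and *Il16*, a chemoattractant for CD4+ cells, which fell by 2.43 on the log2 scale from 7.27 and 7.36.

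All 10 called CC chemokines of 11 tested rose, with a median change of 2.89 and 10 of the 11 detected on all 4 arrays. So did all 6 called CXC chemokines of 8 tested, of which 6 were detected on all 4 arrays, with a median of 4.23 (3.54 with bounds). *Ccl5*, a chemoattractant for T cells and monocytes, went from 9.77 and 9.87 to 14.18 on both, and *Ccl3*, *Ccl4*, *Ccl7* and *Ccl2* rose by 3.98, 3.38, 2.89 and 2.20. The neutrophil attractants *Cxcl1* and *Cxcl2* rose by 6.96 and 5.57. *Ccl17*, a ligand of CCR4, was bright before stimulation (13.38 and 13.23) and rose by only 0.93. *Ccl6* (-0.04) and *Ppbp* (0.01) were not called.

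Of 12 TNF superfamily ligands tested 8 were higher and 3 lower, and 9 were detected on all 4 arrays. The lower share, 25%, was near that of all genes. *Tnf* went from 7.26 and 7.38 to 13.56 and 13.80 (6.36 ± 0.13, adjusted p = 1.5e-05), and *Tnfsf15*, a costimulator of T cells, from 2.84 and 3.47 to 10.28 and 10.39. The death ligand *Tnfsf10* was at 0 on both unstimulated arrays and at 4.75 and 5.01 after stimulation, at least 5.9-fold higher. *Ltb*, the membrane-bound lymphotoxin-β, fell from 7.77 and 7.87 to 6.12 and 6.49, and *Tnfsf13b*, the B cell survival factor BAFF, fell by 1.16 on the log2 scale.

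**Figure D2:**
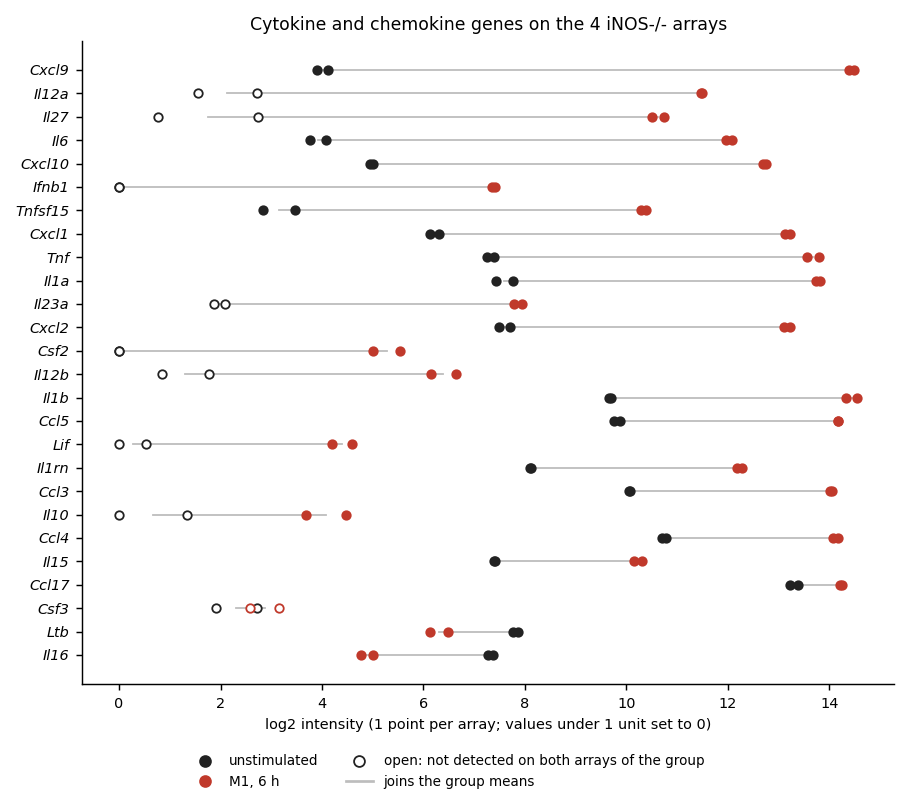
Log2 intensity (x axis) of 26 cytokine and chemokine genes on the 2 unstimulated and 2 M1 arrays of iNOS-/- cells, 1 point per array, with a line joining the group means and open points where the gene was not detected on both arrays of the group. The M1 points lie to the right of the unstimulated ones for most genes, with *Il16* and *Ltb* to the left.

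Of 34 cytokine receptors tested 14 were higher (41.2%) and 9 lower (26.5%), the latter near the 26.8% of all genes, and 28 were detected on all 4 arrays. They had a median of 0.27 that was -0.06 after quantile normalization. The number higher was 8 or 9 without either unstimulated array or M1 replicate 1 of the iNOS-/- cells. *Il15ra* and *Il12rb2* rose by 3.23 and 2.72, the TNF receptor *Tnfrsf1b* by 1.87 and the death receptor *Fas* by 1.70. *Ifngr1*, the ligand-binding chain of the IFN-γ receptor, fell from 8.56 and 8.48 to 6.44 and 6.26. *Csf1r*, the M-CSF receptor, fell from 11.43 and 11.30 to 10.28 and 10.00. The signalling interleukin-1 receptor *Il1r1* changed by -0.65 ± 0.76 (adjusted p = 0.516) and the decoy receptor *Il1r2* by -0.60 ± 0.35 (adjusted p = 0.216). Among 11 chemoattractant receptors tested, 7 of them detected on all 4 arrays, 6 were higher, with *Ccrl2*, an atypical receptor for chemerin, going from 6.79 and 6.61 to 11.49 and 11.57, and *Ccr7*, which directs cells to lymph nodes, from 7.13 and 7.35 to 10.94 and 10.82. Among the 4 lower ones were *Ltb4r1*, which binds leukotriene B4, and *Cxcr4*, by 1.13 and 1.45 on the log2 scale.

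The LPS receptor itself was lower while its co-receptor was higher. *Tlr4* fell from 8.02 and 7.89 to 6.02 and 6.16 (-1.87 ± 0.13, adjusted p = 0.000286), and *Cd14*, which hands LPS to the TLR4 complex, rose from 10.40 and 10.30 to 13.02 and 12.92. Of 21 Toll-like receptors and adaptors tested, 10 were higher, including *Tlr1*, *Tlr6*, the adaptor *Myd88* and the inhibitory kinase *Irak3*, and 6 were lower (28.6%, near the share of all genes), with 19 detected on all 4 arrays. Of 13 NOD-like receptor and inflammasome genes, 12 of them detected on all 4 arrays, 8 were higher and 3 lower. *Casp4*, the murine sensor of intracellular LPS, rose by 3.99 and *Nlrp3* by 2.79, while the adaptor *Pycard* fell from 6.99 and 6.88 to 5.16 and 5.59.

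NF-κB genes rose almost throughout, in 14 of 15 tested, all of which were detected on all 4 arrays, with a median of 2.43. The inhibitory genes *Nfkbia* and *Tnfaip3*, which encode IκBα and the deubiquitinase A20, rose by 2.47 and 3.98. *Nfkbiz*, a nuclear cofactor for *Il6*, rose from 6.92 and 6.97 to 11.46 and 11.53, and the subunits *Rel*, *Nfkb1* and *Rela* rose by 3.32, 2.46 and 1.21. *Tnip2* was the one member that fell, by 0.95 on the log2 scale, and was not called when the probes of a gene were averaged (-0.74).

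AP-1 and immediate early factors were 6 higher and 6 lower of 18 tested (33.3% each), with 13 detected on all 4 arrays. Their median of -0.18 had no stable sign. It turned to 0.42 when the scaling line had an intercept, to 0.05 with neqc, and to 0.08 and 0.51 without M1 replicate 1 or 2 of the iNOS-/- cells, and was 0.28 with bounds. After quantile normalization 3 were higher and 6 lower. *Fos* fell from 9.56 and 9.66 to 6.82 and 6.59, *Egr2* from 10.67 and 10.64 to 8.53 and 8.40 and *Klf4*, a factor of monocyte differentiation, from 7.69 and 7.47 to 3.55 and 4.47. *Junb* rose by 1.64 and the nuclear receptor *Nr4a2* by 3.58. Phosphatases that switch off MAP kinases were 7 higher and 3 lower of 11, 9 of them detected on all 4 arrays, with *Dusp2* going from 3.53 and 4.09 to 9.85 and 9.94 and *Dusp6* lower by 1.57 on the log2 scale.

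Interferon-induced genes rose almost throughout. Of 27 antiviral IFIT, OAS and Mx effectors tested, 25 were higher and 0 lower, with a median of 3.29, and 24 were detected on all 4 arrays. *Rsad2*, whose product viperin blocks viral replication, went from 7.72 and 7.78 to 13.54 and 13.49 (5.76 ± 0.09, adjusted p = 1.5e-05). *Oasl1* went from 5.29 and 5.32 to 12.35 and 12.33, *Ifit2* from 6.23 and 6.09 to 11.82 and 12.06 and *Ifit3* from 7.25 and 7.28 to 11.27 and 11.33. The groups did not overlap for these genes, nor for 77.2% of all probes. The RNA sensor *Ifih1* rose by 4.65, and the deubiquitinating regulator *Usp18* by 4.02. *Ifi44* (3.67 ± 1.25) and *Oas1b* (2.46 ± 0.84) were not called.

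The interferon-inducible GTPases, which act on intracellular bacteria and parasites, were higher in 11 of 11 tested, with a median of 3.20 and 9 detected on all 4 arrays. *Gbp5* went from 5.69 and 5.90 to 11.46 and 11.49 and *Gbp2* from 11.15 and 11.19 to 14.24 and 14.49, while *Ifi47* and *Igtp* rose by 4.61 and 4.05. *Gbp1* had the smallest change, 1.63 ± 0.12. These families contain close paralogs, and cross-hybridization between them was not tested.

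Factors of the interferon pathway were mostly higher. *Irf1* went from 9.67 on both to 13.05 and 13.20, *Irf7* from 5.26 and 4.98 to 9.98 and 10.09 and *Irf8* from 8.24 and 8.11 to 11.16 and 10.89, and 6 of 8 interferon regulatory factors, all 8 detected on all 4 arrays, were higher. *Irf5* changed by only 0.49 ± 0.10, and by 0.00 after quantile normalization and neqc, where it was not called, nor was it without unstimulated replicate 2 of the iNOS-/- cells (0.40). *Irf3* was not called (0.02). *Irf4* was at the edge of the threshold (-0.30, adjusted p = 0.0499) and lost its call whichever of the 8 arrays was left out (-0.34 to -0.28). Of 14 STAT and SOCS genes tested, 13 of them detected on all 4 arrays, 11 were higher, among them *Stat2* (2.38), *Stat3* (2.19), *Stat4* (3.58) and the feedback inhibitors *Socs1* (2.52) and *Socs3* (3.17). Among the 2 lower ones *Socs5* fell by 0.88 on the log2 scale.

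Antigen presentation genes of class I were mostly higher. Of 17 class I and immunoproteasome genes tested, 14 were higher and 0 lower, with a median of 1.48 and all 17 detected on all 4 arrays, led by the peptide transporter *Tap1* (6.06 and 6.14 to 8.73 and 8.85). The immunoproteasome subunit *Psmb9* went from 9.66 and 9.70 to 11.87 and 11.65. Of 12 class II genes, all detected on all 4 arrays, 5 were higher and 2 lower, with a median of 0.41. This was -0.14 after quantile normalization (0 higher, 3 lower) and also -0.14 after neqc (2 higher, 4 lower), so the direction of the class II genes depended on the scaling. The number higher was 2 or 3 without either unstimulated array or M1 replicate 2 of the iNOS-/- cells. *H2-Ab1*, a class II chain, was bright on all arrays, at 13.94 and 13.88 unstimulated and 14.20 and 14.38 in M1 cells, and the sign of its change turned with quantile normalization and neqc (-0.13). *Ciita*, the class II transactivator, stood at 9.52 and 9.56 and 10.06 and 10.20, and was called higher here but not with those scalings (0.16). Dendritic cell markers stood beside these, 4 higher and 2 lower of 9 tested, of which 7 were detected on all 4 arrays.

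Costimulatory and coinhibitory ligands were 11 higher and 1 lower of 14, with a median of 2.28 and 11 detected on all 4 arrays. *Cd40*, a costimulatory receptor counted with them, went from 8.92 and 8.91 to 14.12 and 14.17 (5.23 ± 0.08, adjusted p = 1.4e-05). *Cd80* and *Cd86*, which engage CD28 on T cells, rose by 2.83 and 2.09, and the inhibitory ligand *Cd274* by 2.03. *Cd276* fell from 3.25 and 3.41 to 0 on both M1 arrays, at least 1.35-fold.

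Arginine enters these cells through transporters such as that of *Slc7a2*, which went from 7.22 and 7.16 to 11.63 and 11.69. *Gch1*, which makes the iNOS cofactor tetrahydrobiopterin, rose from 10.32 on both to 12.90 and 12.96. The citrulline-recycling enzyme *Ass1* rose by 0.82 and the mitochondrial arginase *Arg2* by 1.14. After quantile normalization the change of *Ass1* was 0.26 and not called. *Arg1*, the cytosolic arginase, was called higher (0.60) but lost its call when any 1 of the WT or M1 arrays or unstimulated replicate 2 of the iNOS-/- cells was left out (0.35 to 0.68). The polyamine enzyme *Srm* fell by 2.10 on the log2 scale.

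The list of TCA cycle enzymes also holds the cytosolic forms *Aco1*, *Idh1* and *Mdh1*. Of its 19 genes tested, 6 were lower (31.6%, near the 26.8% of all genes) and 1 higher. The median was -0.21, and all 19 were detected on all 4 arrays. *Idh1*, the cytosolic isocitrate dehydrogenase, fell from 9.83 and 9.73 to 7.54 and 7.46, and the fumarase *Fh1* fell by 1.21 on the log2 scale. The number lower was 2 without unstimulated replicate 2 and 3 without either M1 array of the iNOS-/- cells. Of 25 glycolysis and hypoxia-response genes, 24 of them detected on all 4 arrays, 9 were higher and 2 lower, with a median of 0.20 that was -0.01 after quantile normalization. *Hif1a*, the hypoxia-inducible factor, went from 4.92 and 5.52 to 8.12 and 7.75, and its target *Vegfa* from 6.87 and 6.81 to 8.57 on both.

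Of 17 eicosanoid genes, 13 of them detected on all 4 arrays, 4 were higher and 9 lower. *Ptgs2*, the inducible cyclooxygenase, was undetected at 2.07 and 1.66 and reached 9.11 and 8.95, at least 104-fold higher, and the prostaglandin E synthase *Ptges* rose by 4.10. The constitutive cyclooxygenase *Ptgs1* fell from 7.37 and 7.46 to 5.77 and 5.66. The leukotriene genes *Alox5*, *Alox5ap* and *Ltc4s* fell by 2.07, 1.02 and 1.18 on the log2 scale.

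Sterol genes fell in 14 of 19 tested, with 3 higher, a median of -0.66 and 16 detected on all 4 arrays. *Mvd*, an enzyme of the mevalonate pathway, went from 8.47 and 8.35 to 6.25 and 6.31 (-2.13 ± 0.09, adjusted p = 6.29e-05), and *Dhcr7*, a late step of cholesterol synthesis, was at least 7.59-fold lower. *Idi1* and *Pmvk* rose by 1.64 and 1.92. *Ch25h*, which makes 25-hydroxycholesterol, an inhibitor of sterol synthesis, went from 6.39 and 6.36 to 11.73 and 11.71. *Pparg*, a nuclear receptor for lipids, fell from 6.91 and 6.70 to 3.48 and 3.90, and the cholesterol exporter *Abcg1* fell by 1.24 on the log2 scale. Without unstimulated replicate 1 or 2 of the iNOS-/- cells, 9 and 8 sterol genes were lower.

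Markers of alternative activation were 6 higher and 10 lower of 18 tested, with a median of -0.34 and 16 detected on all 4 arrays. The scavenger receptor *Stab1* fell from 6.15 and 6.08 to 3.58 and 3.25, and the lectins *Mgl1* and *Mgl2* fell by 1.68 and 0.72 on the log2 scale. *Tgm2* rose by 2.99. Phagocytic receptors were 8 higher and 8 lower of 23 (34.8% each), with 21 detected on all 4 arrays, or 5 lower without unstimulated replicate 1 of the iNOS-/- cells. The lectin *Clec4e*, the scavenger receptor *Marco* and the Fc receptor *Fcgr4* rose by 4.18, 3.86 and 3.02, while the neonatal Fc receptor *Fcgrt* fell by 1.78 on the log2 scale and the lectin *Cd209a* went from 5.18 and 5.41 to 0 on both arrays, at least 5.25-fold lower.

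**Figure D3:**
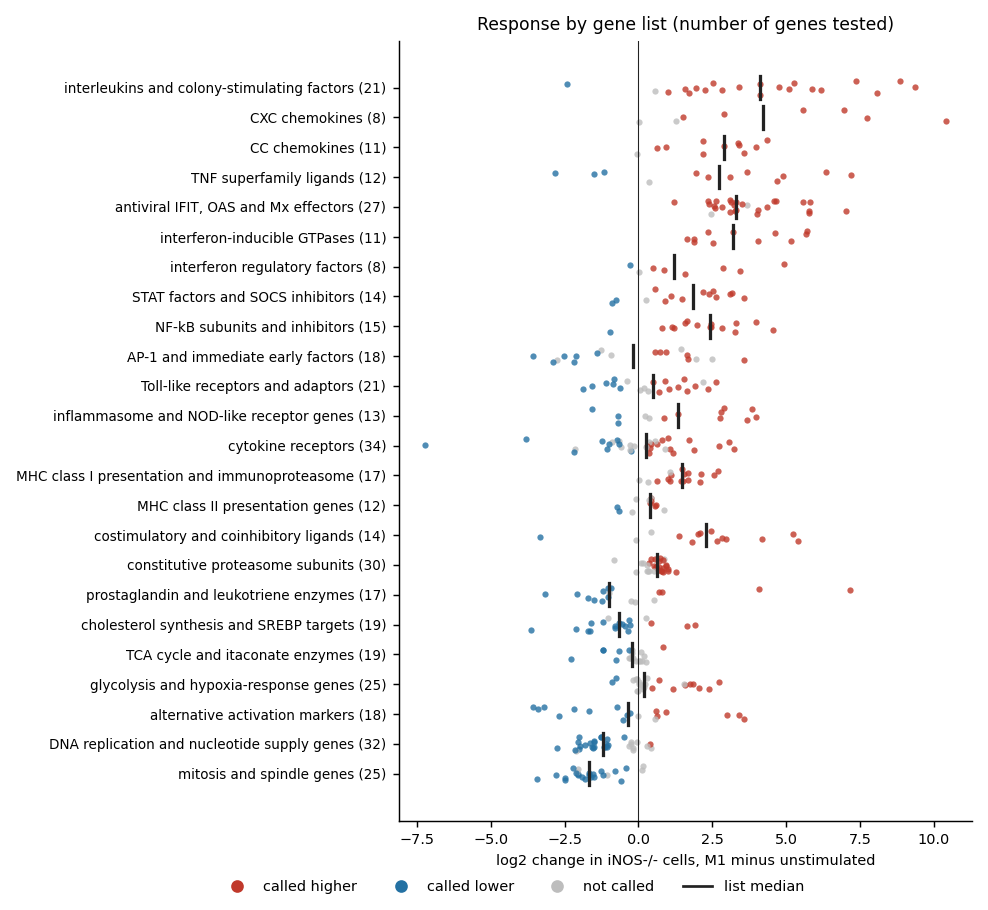
Log2 change of iNOS-/- cells (M1 minus unstimulated, x axis) of every tested member of the gene lists (y axis, with the number tested), 1 point per gene coloured by its call, with a bar at the list median. The antiviral and GTPase lists have no gene called lower, and the mitosis list has none called higher.

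Genes of dividing cells fell. Of 25 mitosis and spindle genes tested, 20 were lower and 0 higher, with a median of -1.68, and 21 were detected on all 4 arrays. *Plk1*, a kinase of mitotic entry, went from 8.66 and 8.59 to 6.45 and 6.59 (-2.10 ± 0.10, adjusted p = 9.7e-05). *Cdc20*, which activates the anaphase-promoting complex, went from 8.62 and 8.67 to 6.57 and 6.63, and the motor *Kif23* from 7.56 and 7.37 to 4.29 and 5.05. In all 3 the M1 arrays lay below the unstimulated ones. Of 32 DNA replication and nucleotide supply genes, 22 were lower and 1 higher, with a median of -1.21 and 30 detected on all 4 arrays. *Tk1*, thymidine kinase, went from 7.90 and 7.85 to 5.27 and 4.99, and *Mcm5*, a subunit of the replicative helicase, from 9.77 and 9.74 to 8.62 and 8.60. The clamp *Pcna* was not called (-0.18). The 1 higher gene was *Tyms* (0.39), which was not called without unstimulated replicate 2 or either M1 array of the iNOS-/- cells (0.28 to 0.41), or after quantile normalization or neqc (0.22 and 0.21).

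The response was set beside that of the WT arrays, with the difference tested in the same fit. Responses differed for 5829 of 13868 probes (42.0%), 2689 higher (19.4%) and 3140 lower (22.6%) in iNOS-/- cells. By gene the differences were 2044 higher (20.1%) and 2402 lower (23.6%) of 10163, and WT cells themselves had 2125 genes higher (20.9%) and 1577 lower (15.5%). Of genes called in both genotypes, 1639 moved in the same direction and 862 in opposite directions. Across the 10163 genes, which are not independent replicates, the changes had a Pearson r of 0.29. At least a 2-fold difference was called for 3845 probes. A difference in response sums 2 differences between the genotypes, 1 in M1 and 1 in unstimulated cells, and the unstimulated iNOS-/- arrays lay nearer to the WT M1 arrays, as given above.

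The secreted mediators showed both outcomes. Of 21 interleukins and colony-stimulating factors the difference was called higher for 10 and lower for 2, beside 20.1% and 23.6% of all genes. These counts were 5 and 2 of 11 CC chemokines, and 2 and 0 of 8 CXC chemokines. For 12 TNF superfamily ligands they were 1 and 4, or 4 and 3 with neqc and 6 and 2 with a floor of 16. The order of their medians also depended on the processing. It was 2.73 against 3.61 in WT cells here, 1.55 against 1.42 with neqc and 1.99 against 1.53 with that floor. The responses of *Il6*, *Tnf*, *Cxcl9*, *Cxcl10* and *Il12a* did not pass the test of a difference. Their values were 8.09 against 8.95, 6.36 against 6.29, 10.43 against 11.70, 7.74 against 8.32 and 9.35 against 8.97, with SEs of the difference from 0.19 to 0.78. *Il6* and *Il12a* were undetected on both WT unstimulated arrays, so their WT values rest on levels below detection. With those arrays at their bound the WT changes were at least 7.67 and 6.48, which the test did not use. Which genotype had the larger *Il6* change is therefore not known. *Il1rn* rose more in iNOS-/- than in WT cells (4.11 against 1.92, adjusted p of the difference = 0.000371), and *Ccrl2* too (4.83 against 0.76, adjusted p = 0.000147). *Ccl17* rose less (0.93 against 4.37, adjusted p = 0.000148), from unstimulated levels of 13.38 and 13.23 in iNOS-/- and 9.05 and 9.12 in WT cells. *Ltb* moved in opposite directions, -1.51 against 3.24.

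Among the antiviral effectors the response was larger in iNOS-/- cells for 17 of 27 genes and smaller for 0, with medians of 3.29 and 2.23. *Rsad2* is an example, 5.76 against 3.59 (adjusted p of the difference = 0.00047). The response of *Irf1* also differed (3.45 against 1.05). The GTPases had medians of 3.20 and 3.39, with 4 higher and 3 lower, which became 2 higher and 5 lower after quantile normalization, and with neqc the order of the medians turned (2.61 and 2.48). *Gbp1* rose far less (1.63 against 6.33). The class II differences were 1 higher and 10 lower of 12, and *Ciita* changed by 0.59 against 3.43. The dendritic cell markers moved with them, with 0 higher and 7 lower of 9.

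**Figure D4:**
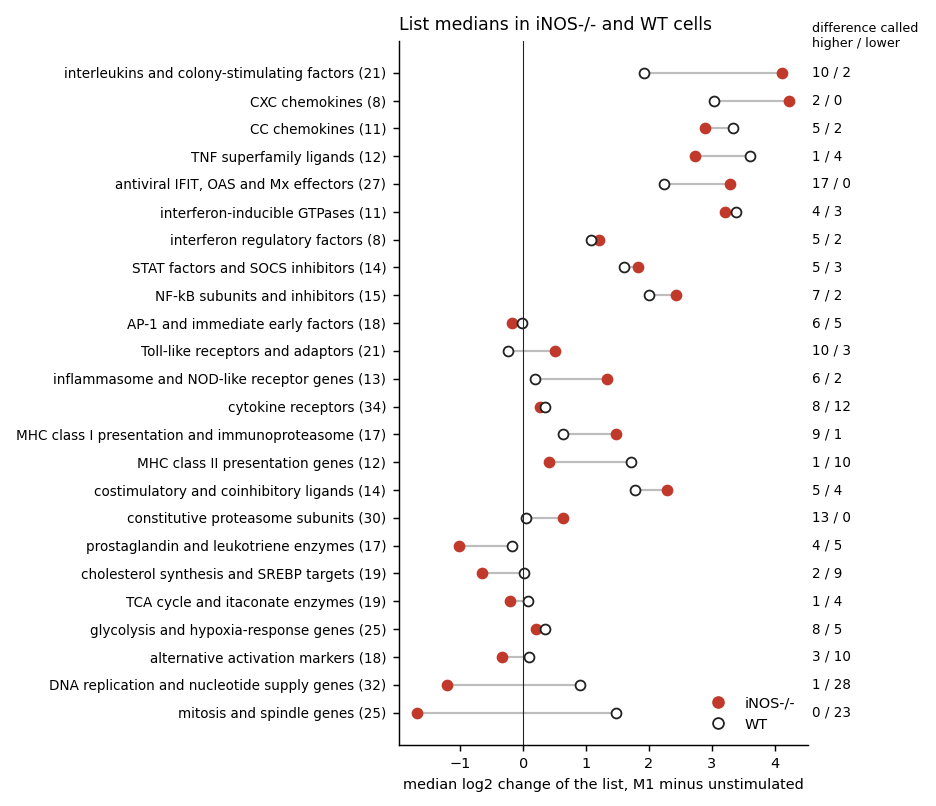
Median log2 change (M1 minus unstimulated, x axis) of each gene list (y axis, with the number of genes tested) in iNOS-/- cells (filled) and WT cells (open), with the number of genes whose difference in response was called higher or lower in iNOS-/- cells at the right. The medians of the mitosis and DNA replication lists lie on opposite sides of 0 in the 2 genotypes.

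Receptors and early factors differed as well. *Ifngr1* fell by 2.17 on the log2 scale against a WT value of 0.27 (adjusted p of the difference = 0.000483), *Tlr4* by 1.87 against -0.25 and *Klf4* by 3.56 against -0.11. *Fcgr4*, in turn, rose by 3.02 in iNOS-/- cells and changed by -1.07 in WT cells. *Vegfa* rose by 1.73 against -1.84 (adjusted p of the difference = 0.000147). *Slc7a2* and *Dusp2* rose in both, by 4.47 against 1.83 and 6.09 against 2.27.

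The dividing-cell genes had responses of opposite sign. The median level of the 25 mitosis genes was 7.56 and 7.59 on the unstimulated and 6.38 and 6.43 on the M1 arrays of iNOS-/- cells. It was 6.12 and 6.28 on the unstimulated and 7.31 and 7.56 on the M1 arrays of WT cells. In these medians the unstimulated iNOS-/- arrays stood beside the WT M1 arrays, and the iNOS-/- M1 arrays beside the WT unstimulated ones, by the labels, which were not checked for genotype. *Plk1* in WT cells went from 6.23 and 6.38 to 8.11 and 8.23. The difference in response was lower for 23 of 25 mitosis genes, with a median of -3.50, and for 28 of 32 DNA replication genes, with a median of -1.91.

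**Figure D5:**
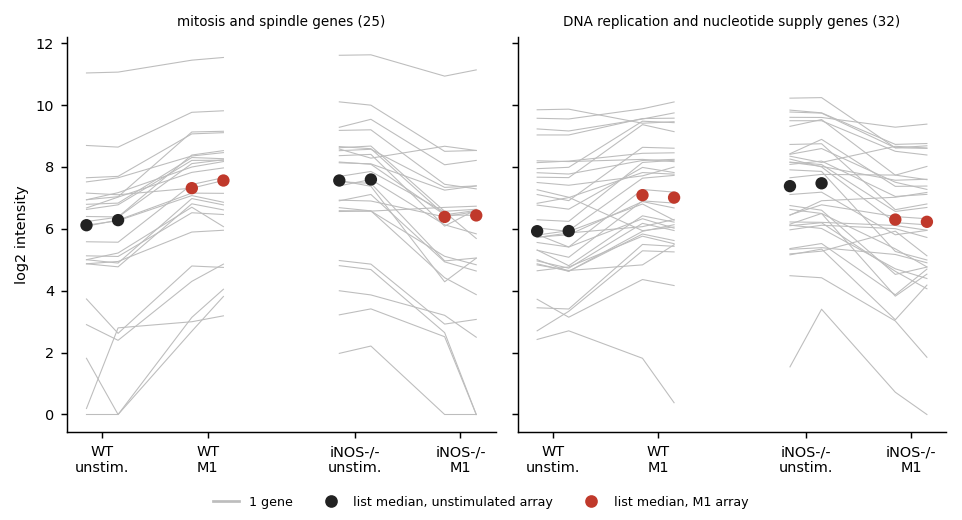
Log2 intensity (y axis) of the 25 mitosis and spindle genes and the 32 DNA replication genes on each of the 8 arrays (x axis, by group), with 1 grey line per gene and genotype and a point at the median of each array. The medians fall from unstimulated to M1 in iNOS-/- cells and rise in WT cells.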

How the data were processed

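The 8 arrays were Illumina mouse bead arrays, named MouseRef-8 in the labels and MouseWG-8 in the methods. Whether each array had its own culture is not stated. The authors deposited intensity values per probe, not normalized between arrays, with a detection p-value for each. In the methods the background was subtracted, arrays were normalized by rank-invariant probes, negative values became 1, and log2 values went to limma. The submitters' processing notes name GenomeStudio and limma 3.14.4. The deposited file's header names no background subtraction, yet 25.2% to 27.2% of its intensities lie below 0, so none was subtracted here. All value columns had a sample, with 0 left over.

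Each array was scaled by a robust slope without an intercept, fitted in MASS 7.3.60.0.1 against the mean array, over probes whose rank moved by less than 0.05 of its value and lay between 0.5 and 0.9 of all ranks. Values under 1 were set to 1, which includes positive ones, before taking log2. The test kept probes detected (p-value under 0.05) on 2 or more arrays. Groups came from the labels. All 8 arrays entered 1 model with a mean per group in limma 3.58.1 (R 4.3.3), with Benjamini-Hochberg adjustment over 13868 probes. Contrasts were M1 against unstimulated iNOS-/- cells and the difference of this response from the WT one. The filter let in genes detected only after stimulation, which had to differ, so the number detected on all 4 iNOS-/- arrays is given beside list counts. Where a group was undetected, its mean was taken per array as the higher of the probe's value and the lowest detected value.

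The comparison, the gene lists (drawn from general knowledge) and the rule for named genes were chosen with earlier results of these data known. The rule takes *Nos2*, the 12 largest changes each way among probes detected on all 4 iNOS-/- arrays, the 8 largest at least folds each way, the 4 largest differences in response each way, genes that the methods and text of the study name for the arrays, and list members. Some genes that this rule takes are not reported here. Same-numbered arrays did not deviate together (correlations from -0.034 to 0.027), so the number was not used as a pair. The procedure was tested on simulated arrays of this comparison with 200 changed probes. It called 125 of them (62.5%) and 10 unchanged ones (a false share of 7.41%). The simulation changed only 200 of 13868 probes and gave the other groups 1 shared baseline, while 50.3% of probes were called in the data. Whether its rates hold where so many probes change was not tested. The alternatives were quantile normalization, neqc, a floor of 16, no or a stricter detection filter, a fit of the 4 iNOS-/- arrays, a 2-fold minimum, the replicate number as a block, averaged probes and each array left out. A scaling line with an intercept and an intensity trend were added after seeing the data. Figures were drawn with Python 3.11.15 and matplotlib 3.10.9.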

Additional observations from a re-analysis of the deposited data

Results flagged for a closer look

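The response of iNOS-/- cells differed from that of WT cells for 5829 probes in the test of the difference itself. Among probes detected on all 8 arrays the 8 differences given here led their direction.

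A larger change in iNOS-/- cells was called for the collagenase *Mmp13*, with a difference of 5.17 in log2 change. The iNOS-/- arrays went from 3.89 and 3.85 to 8.81 and 8.66, while the WT arrays stood at 6.42 and 6.69 before and 6.29 and 6.19 after stimulation. The lipid phosphatase *Ppap2b* differed by 4.66 and *D14Ertd668e* by 4.66. *Mmp13*, *Ppap2b* and *D14Ertd668e* are given here by a probe other than the brightest of their gene. The transcription factor *Foxq1* differed by 4.199, with opposite directions. It went from 3.63 and 3.46 to 5.36 and 5.48 in iNOS-/- cells and from 6.88 and 6.93 to 4.78 and 4.38 in WT cells.

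The most negative differences were those of *Asgr2* (-8.16), *Asb2* (-7.50), *Ffar2* (-7.18) and *Adra2a* (-6.32). *Asgr2*, a lectin receptor for asialoglycoproteins, went from 9.16 and 9.29 to 7.19 and 7.24 in iNOS-/- cells and from 3.06 and 4.12 to 9.74 and 9.75 in WT cells. The ubiquitin ligase component *Asb2* stood at 9.85 and 9.86 on the iNOS-/- unstimulated arrays against 3.11 and 2.54 on the WT ones, and at 9.30 and 9.36 against 9.82 and 9.76 on the M1 arrays, and its change in iNOS-/- cells was not called. The short-chain fatty acid receptor *Ffar2* and the adrenergic receptor *Adra2a* had unstimulated iNOS-/- values of 9.41 and 9.43 and of 9.35 and 9.39 against WT values of 3.74 and 3.60 and of 3.94 and 4.30. Their M1 values were 6.69 and 6.73 and 8.53 and 8.39 in iNOS-/- cells against 8.04 and 8.24 and 9.47 and 9.56 in WT cells, and both fell in iNOS-/- cells, by 2.71 and 0.92 on the log2 scale. For these 4 genes both unstimulated iNOS-/- arrays lay far above both unstimulated WT arrays.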

How the results depend on the processing

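The count of probes called in the iNOS-/- response, 6975, lay between 6075 and 8040 under the other scalings, floor, filters and fits, and was 3995 with a 2-fold minimum. With 1 array left out it was 5504 to 6726. For the difference in response, 5829 probes became 5326 to 7078 under those settings that allow it, 3845 with a 2-fold minimum and 4541 to 5241 with 1 array left out. With the replicate number as a block the counts were 6612 and 5326. Of 181 called changes of genes taken by the naming rule or the text, 180 then kept their call and *Irf4* lost it. Quantile normalization lost 4 of the 181 calls and reversed 2, neqc lost 3 and reversed 2, and a floor of 16 lost 5. List medians depended on the processing. Of 47 list medians, 40 moved with neqc, 33 with quantile normalization and 22 with a floor of 16. A median counted as moved when it shifted by more than the median standard deviation within the iNOS-/- groups. Bright genes moved down under quantile normalization and neqc. *Emr1* changed by -0.41 under both, *Irf3* by -0.35 under both (-0.348 with neqc), *H2-Ab1* by -0.13 and *Lyz2* by -0.0063, each opposite in sign to the value without them. The cause was not tested. With a floor of 16, *Il10*, *Lif*, *Cxcl3* and *Cd276*, whose levels lie near or under that floor, and *Arg1* were no longer called. SEs of probes near background limit what could be called, with a median of 0.67 against 0.13 for probes detected on all 4 iNOS-/- arrays.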

Other observations

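Of all genes 25.2% were higher and 26.8% lower in iNOS-/- cells, and the lists given here stand beside these shares. Of 30 constitutive proteasome subunits, all detected on all 4 iNOS-/- arrays, 20 were higher and 0 lower, with a median of 0.63 against 0.05 in WT cells, and 13 of the differences were called higher and 0 lower. After quantile normalization the median was 0.20, with 9 higher and 2 lower. Mitochondrial ribosomal proteins, which translate the subunits that mitochondria encode, were 5 higher and 26 lower of 64 (40.6%), all 64 detected on all 4 arrays, with a median of -0.31, and 0 higher and 36 lower after quantile normalization. Cytosolic ribosomal proteins were called less often than all genes, 10 higher (19.2%) and 5 lower (9.62%) of 52, all detected on all 4 arrays, and were 1 higher and 34 lower after quantile normalization, so their direction depended on the scaling. The respiratory chain was also called less often than all genes, 6 higher and 6 lower of 67 (8.96% each, 66 detected on all 4 arrays), against 2 higher and 44 lower after quantile normalization.

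Targets of NRF2, the factor of the oxidative stress response, were 12 higher and 7 lower of 28 (25 detected on all 4 arrays), with a median of 0.53 that was 0.04 after quantile normalization. The cystine transporter *Slc7a11* rose by 2.41, the autophagy receptor *Sqstm1* by 1.73 and the mitochondrial superoxide dismutase *Sod2* by 1.72. Apoptosis regulators were 9 higher (39.1%) and 5 lower (21.7%, under the share of all genes) of 23, with 22 detected on all 4 arrays. The survival genes *Bcl2l1* and *Birc3* rose by 2.79 and 2.49, and the death-promoting *Bmf* and the caspase *Casp6* fell by 3.07 and 2.49 on the log2 scale. Matrix proteases and inhibitors were 12 higher and 3 lower of 19 (17 detected on all 4 arrays), with *Serpinb2* going from 6.58 and 6.86 to 11.93 and 12.06. Granulocyte markers were 7 higher and 0 lower of 9 tested (8 detected on all 4 arrays), with *S100a9* at 7.84 and 7.74 and 9.45 and 9.56 on the iNOS-/- arrays and at 0 on both and 7.26 and 7.05 on the WT arrays.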
